A study of Mus musculus with 9 samples.

Results

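Hepatic stellate cells that lack p62, the protein encoded by Sqstm1, were compared with wild-type (WT) cells whichever their Nbr1 genotype. The comparison took the 6 libraries labelled as carrying the Sqstm1 knock-out against the 3 WT libraries, so all 9 libraries of the series entered it. The 6 were 3 libraries of Sqstm1 knock-out (Sqstm1 KO) cells with no change in Nbr1 labelled, and 3 libraries of Nbr1 Sqstm1 double knock-out cells. All cells were mouse liver stellate cells kept for 4 days in DMEM with fetal bovine serum, glutamine and antibiotics under basal conditions, and no group was treated. The labels give no age, sex, strain or method of knock-out, and they do not say whether the replicates of a group were separate animals, cultures or clones, so p-values measure the spread between these libraries. The question was what the loss of p62 did to the transcriptome in both genetic backgrounds, over the 10118 of 14020 genes with a normalized count of at least 10 in 3 or more of the 9 libraries.

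p62 is a selective autophagy receptor and a signalling scaffold. It gathers ubiquitinated cargo and hands it to the autophagosome through LC3, holds KEAP1 away from the antioxidant factor NRF2, and joins TRAF6 and NF-kB signalling and mTORC1 activation at the lysosome. NBR1 is a related receptor with a similar domain layout. Stellate cells store retinoid in lipid droplets in the healthy liver, and on injury or on plastic they become contractile, matrix-producing myofibroblasts, a change in which p62 is known to act with the vitamin D receptor as a brake.

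The libraries held between 819677 and 1467793 counted reads, over 12673 to 13794 genes. Sqstm1 KO replicate 3 stood apart, with 18.5% of its reads in its 10 highest genes and correlations across genes of 0.847 and 0.853 with the other 2 libraries of its group. Across tested genes, the correlation between a Sqstm1 KO and a double knock-out library had a median of 0.832, that between a Sqstm1 KO and a WT library 0.859, and that between a double knock-out and a WT library 0.829. The median SD of the log2 values was 0.300 in WT, 0.476 in Sqstm1 KO, 0.387 in double knock-out cells and 0.544 over the 6 p62-deficient libraries. Of 14 stellate cell markers, 9 had values and were tested, among them Pdgfrb with 44.9 to 61.9 normalized counts in WT and 43.4 to 78.8 in the p62-deficient libraries. The 9 were not even across groups. By the test described below, Acta2, Col1a2, Col3a1, Hand2 and Dcn were called higher without p62, and Pdgfrb, Pdgfra, Col1a1 and Vim were not called. Des, Lrat, Reln, Rgs5 and Lum have no value in the table. A further property touches the counts of many genes, since the sources used here do not give the strandedness of the libraries. Among the 100 most abundant matched genes, 73 share exon sequence with a gene on the opposite strand, against 36.2% of the other matched genes. Such partners are named beside the genes described with values, and levels are compared between libraries, not between genes. Of the genes named below only as called members of a list, Adamts9, Car9, Cd34, Cln3, Cryab, Fgf10, Gas6, Hand2, Igfbp7, Irf3, Mylk, Pfkp and Tnfaip2 also have such a partner.

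Sqstm1 itself was low in every library labelled as lacking it. Its normalized count was 223, 255 and 243 in WT, 40.8, 30.8 and 86.8 in Sqstm1 KO, and 25.8, 51.4 and 59.9 in double knock-out cells. The 6 values lay below all WT values, and reads remained in each library. The log2 fold change was -2.38 (SE 0.33, limma adjusted p = 0.00063), and the 2 p62-deficient groups differed by -0.15, with a 95% interval from -0.96 to 0.66. The exon overlap partner of Sqstm1 on the opposite strand, Mrnip, fell with it, by 2.79 on the log2 scale (limma adjusted p = 0.025), from 10.3 to 17.3 in WT to at most 5.68. The Mrnip call was lost without any 1 of the 3 WT libraries (limma adjusted p between 0.101 and 0.179) and with the 6 libraries as 1 group (0.111). Among the 20 tested genes nearest to Sqstm1, 10 on each side, 2 rose (Adamts2 and Gm51860) and Mrnip alone fell, and their median log2 fold change was -0.12.

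Nbr1 was not called in the pooled comparison. It had 106, 92.7 and 106 normalized counts in WT, 75.5, 72.2 and 88.9 in Sqstm1 KO, and 81.3, 79.9 and 111 in double knock-out cells. The 3 Sqstm1 KO values lay below WT, and the double knock-out overlapped both other groups. The log2 fold change of the p62-deficient libraries was -0.27 (limma adjusted p = 0.51), and the double knock-out differed from Sqstm1 KO by 0.19 with an interval from -0.34 to 0.71. The count of Nbr1 reads therefore gave no check of the double knock-out label, since the sources used here do not say which part of Nbr1 was targeted.

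The p62-deficient groups also differed in Y-linked genes. Ddx3y, an RNA helicase gene on the Y chromosome, had 76.3, 67.8 and 76.4 normalized counts in WT and 47.8, 44.5 and 54.8 in double knock-out cells, and 0 reads in each Sqstm1 KO library. Eif2s3y, Kdm5d and Uty likewise had 0 reads in all 3 Sqstm1 KO libraries and had reads in the other 6, where a count of 0 allows at most 0.957 normalized counts over the Sqstm1 KO group. Reads of Y-linked genes were thus seen in WT and double knock-out cells and not in Sqstm1 KO cells, and an effect of that difference on other genes in the comparison of Sqstm1 KO with the rest was not tested. The 2 X-inactivation genes that were looked for have no value in the table, in any group. The sex of the cells was not tested. The calls of Kdm5d and Uty in the pooled comparison were lost without WT replicate 2 (limma adjusted p = 0.0732 and 0.116) and without WT replicate 3 (0.0572 and 0.0911). With the 6 libraries as 1 group the calls of Ddx3y, Kdm5d and Uty were lost (0.225, 0.343 and 0.277).

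A gene was called when limma's Benjamini-Hochberg adjusted p over the 10118 tested genes was below 0.05. The fold change is the mean of the Sqstm1 KO and double knock-out means minus the WT mean, on log2(normalized count + 1). This called 636 genes (6.29% of those tested), of which 352 were higher (3.48%) and 284 lower (2.81%) without p62. The median over all tested genes was -0.03. In 1179 genes (11.7%) all 6 p62-deficient libraries lay beyond all 3 WT libraries, 562 above (5.55%) and 617 below (6.1%), and 501 genes (4.95%) met both criteria. Called genes were of 2 kinds. In 475 the difference between the p62-deficient groups was not called, and in 161 it was, since double knock-out and Sqstm1 KO differed in 600 of the tested genes (5.93%). A difference that was not called does not show equal effects: the 95% interval of the difference lay within 1 log2 unit of 0 in 124 of the 636 genes, 70 higher and 54 lower. When the 6 libraries were instead treated as a single group, so that the genotype difference counted as noise, 267 genes (2.64%) were called, 174 higher and 93 lower, and all were among the 636. For each gene list below, the share of tested members called is given after the counts and is to be read beside 6.29% over all tested genes. The lists were chosen with earlier results of these data known, so these shares and medians are descriptions and not independent tests. The call count was 296, 228 and 285 without WT replicate 1, 2 and 3, and 1044 without Sqstm1 KO replicate 3. An exon overlap on the opposite strand was present in 232 of 546 called genes matched to the annotation, against 3673 of 9236 tested. By direction it was present in 150 of 309 matched genes called higher and 82 of 237 called lower.

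**Figure D1:**
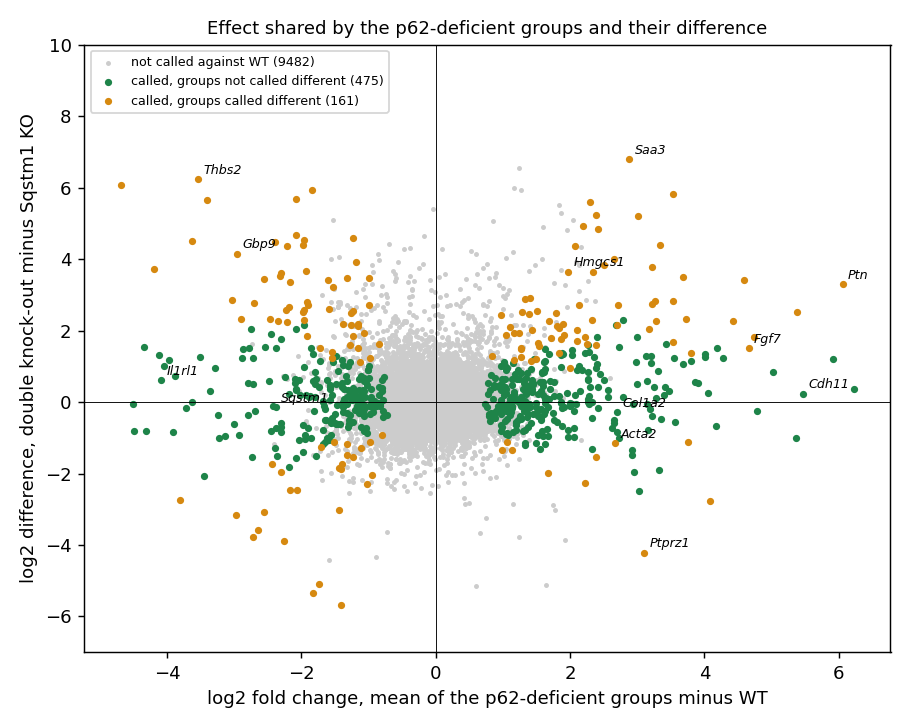
Each point is a tested gene, with the log2 fold change of the p62-deficient groups against WT on the x axis and the log2 difference of double knock-out minus Sqstm1 KO on the y axis. The 475 green genes were called against WT with no called difference between the p62-deficient groups, and the 161 orange genes were called in both comparisons; Cdh11, Col1a2, Sqstm1 and Il1rl1 sit near 0 on the y axis, and Saa3, Thbs2 and Ptprz1 far from it.

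The genes of whole chromosomes moved together. On chromosome 6 the median log2 fold change of 499 tested genes was 0.65, 85.0% of them were above 0, and 67 were called higher against 7 lower. Relative to the mean of all 9 libraries, the chromosome 6 median was -0.35, -0.41 and -0.37 in WT, 0.23, 0.27 and 0.24 in Sqstm1 KO, and 0.25, 0.25 and 0.24 in double knock-out cells. The 6 p62-deficient libraries lay close to one another and all above the WT libraries. The rise held along the chromosome, with medians from 0.52 to 0.72 in 6 consecutive blocks of genes.

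Chromosome 13 had a median of 0.42 over 323 genes, with 30 called higher and 2 lower, and was higher in double knock-out cells (0.58) than in Sqstm1 KO (0.32). Chromosome 10 had a median of -0.36 over 534 genes, with 15 called higher and 27 lower, and 22.1% of its genes were above 0. Over the 20 chromosomes compared (19 autosomes and X), all 6 p62-deficient libraries lay above all WT libraries in 5 and below them in 6, and in 9 they overlapped. In each of those 11 the two-sided exact permutation test of 6 against 3 libraries gave the smallest p it can, 0.0238, or 0.0433 after Benjamini-Hochberg adjustment over 20. That p follows from the separation by which the 11 were picked and adds no support of its own. Chromosomes 6 and 13 held 97 of the 352 genes called higher (27.6%) and 8.12% of the tested genes. When each chromosome's median was subtracted in each library, 485 genes were called, 257 higher and 228 lower, of which 455 were among the 636. On chromosome 6 this left 14 genes called higher and 13 lower. DNA copy number was not measured, and its part in these shifts was not tested. Genes described below with values that lie on chromosome 6 are also given after this subtraction. Of those named only as called list members, Adamts9, Hk2, Pdia4 and Vamp8 lie on chromosome 6, and their log2 fold changes of 1.69, 1.34, 0.88 and 1.34 were 1.06, 0.71, 0.25 and 0.71 after it, none of them called. On other chromosomes Cd34, Flt1, Ifit2, Ifnar2, Inhba, Irf3, Pfkp, Sod2, Stat2 and Tnfaip2, also named only as list members, lost the call after the subtraction. Their limma adjusted p then lay between 0.062 (Cd34) and 0.258 (Inhba).

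**Figure D2:**
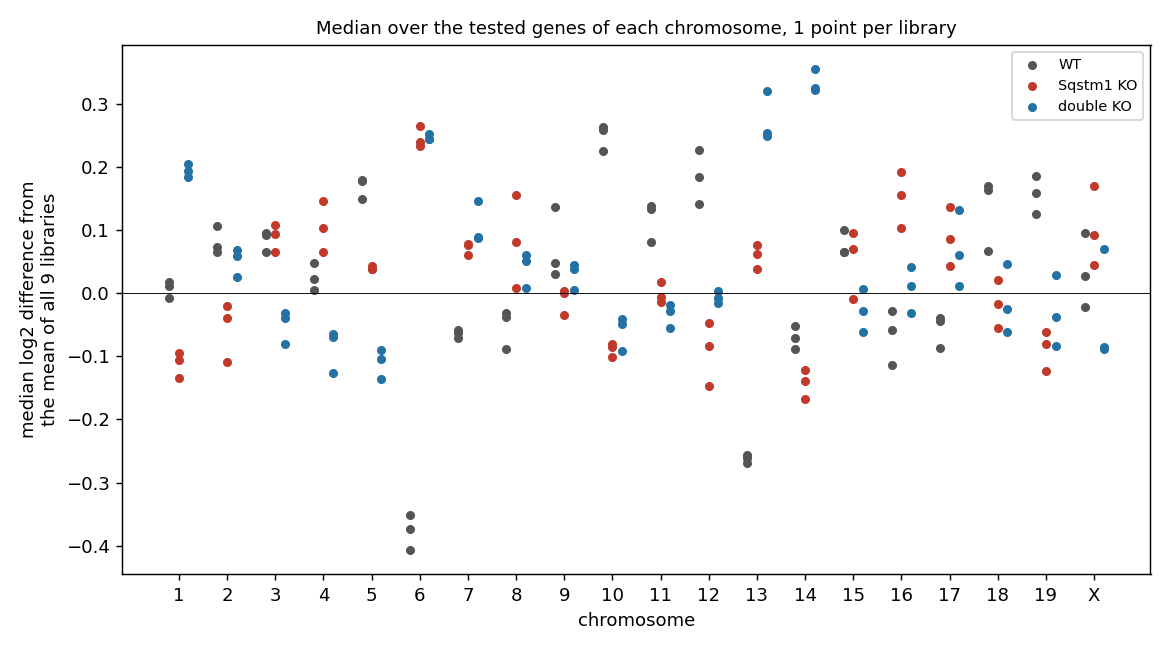
Each point is 1 library, and the y axis gives the median, over the tested genes of the chromosome on the x axis, of the log2 difference from the mean of all 9 libraries. The 6 p62-deficient libraries form a tight set above the 3 WT libraries on chromosome 6. On chromosome 13 they are all above WT with the double knock-out libraries the higher, on chromosome 10 all are below WT, and on chromosome 14 the double knock-out libraries stand alone.

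Contractile and smooth muscle genes, which mark the myofibroblast state, were called in 1 direction. Of 23 tested members, 7 rose (Acta2, Actg2, Tagln, Cnn1, Myl9, Mylk and Lmod1), none fell (30.4% called), and 16 were not called. In 10 all 6 p62-deficient libraries lay above WT, which was so for 5.55% of all tested genes, and 17 had a log2 fold change above 0. The list's median log2 fold change was 0.66, against -0.03 for all tested genes. It was 0.80 in Sqstm1 KO and 0.37 in double knock-out cells. In the double knock-out 4 members were called lower than in Sqstm1 KO and 0 higher. Members called higher numbered 9 from the Sqstm1 KO libraries alone and 5 from the double knock-out libraries alone. At the unadjusted p of limma below 0.05, 12 were higher and 0 lower, and edgeR and DESeq2 also called 0 lower.

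Acta2, the smooth muscle actin used as the standard mark of an activated stellate cell, had 77.6, 81.4 and 94.6 normalized counts in WT. It had 632, 908 and 918 in Sqstm1 KO, and 266, 545 and 335 in double knock-out cells. Every p62-deficient library was above every WT library, and Sqstm1 KO was the higher of the pair of groups. The log2 fold change was 2.67 (SE 0.25, limma adjusted p = 1.9e-05), and the double knock-out was lower than Sqstm1 KO by a called difference of -1.14 (limma adjusted p = 0.032). Actg2, the enteric smooth muscle actin, followed the same order, from 6.06 to 8.29 in WT to 142 to 170 in Sqstm1 KO and 54.8 to 84.1 in double knock-out cells. Its log2 fold change was 3.75 (limma adjusted p = 5.9e-07), and 3.12 after subtraction of the median of chromosome 6, on which it lies.

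Myl9, the regulatory light chain of smooth muscle myosin, had 19.1, 16.6 and 15.2 normalized counts in WT, 69.4, 75.5 and 81.3 in Sqstm1 KO, and 40.2, 51.4 and 62.4 in double knock-out cells. All 6 lay above WT, with a log2 fold change of 1.81 (SE 0.24, limma adjusted p = 0.00043) and no called difference between the p62-deficient groups (interval from -1.16 to 0.03). The 250 bases before its RefSeq start are shown because they hold a CArG box, the element bound by serum response factor that many contractile genes carry. The window is chr2:156775214-156775463 of GRCm38.p6 (+ strand), and the capitals mark the box, 152 to 161 bases before the start, which matches on both strands.
Myl9: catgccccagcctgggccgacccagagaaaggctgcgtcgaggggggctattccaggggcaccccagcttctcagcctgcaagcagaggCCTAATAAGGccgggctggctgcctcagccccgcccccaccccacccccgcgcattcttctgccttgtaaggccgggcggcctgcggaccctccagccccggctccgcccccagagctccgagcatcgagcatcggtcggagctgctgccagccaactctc
A CArG box was present in 482 of 32851 such RefSeq windows (1.47%). No exact box was in the windows of Acta2, Cnn1, Mylk or Lmod1, which says nothing about more distant or inexact sites.

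Tagln, which encodes the actin-binding protein transgelin, rose by 1.52 (SE 0.23, limma adjusted p = 0.0014), with 93.4 to 131 normalized counts in WT and 211 to 622 in the p62-deficient libraries. The gene on the opposite strand, Pcsk7, a proprotein convertase, rose by 2.69 (limma adjusted p = 0.0012), from 2645, 1930 and 1774 in WT to between 8791 and 30316. Neither range overlapped WT. Tagln also overlaps Gm48529, and Pcsk7 also overlaps Rnf214. Tagln and Pcsk7 share exon sequence, so their reads cannot be told apart without strand information.

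The stellate activation and fibrillar matrix list had 9 of 44 tested members higher (Acta2, Col1a2, Col3a1, Col6a3, Col12a1, Col14a1, Postn, Timp1 and Dcn) and 1 lower (Thbs2), 22.7% in all, with a median of 0.31. Col1a2, a chain of type I collagen, had 294, 281 and 303 normalized counts in WT, 1858, 2115 and 2356 in Sqstm1 KO, and 1966, 1647 and 1584 in double knock-out cells. Both p62-deficient groups lay far above WT, and their difference had an interval from -0.84 to 0.27. The log2 fold change was 2.70 (SE 0.23, limma adjusted p = 5.5e-06), and 2.07 after subtraction of the chromosome 6 median. Col1a1, its partner chain, had 714 to 783 in WT and 895 to 3190 in the p62-deficient libraries, with a log2 fold change of 1.13 that was not called.

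Other matrix genes rose in both backgrounds. Postn, encoding the matricellular protein periostin, had 5.45, 11.3 and 13.3 normalized counts in WT, 79.2 to 125 in Sqstm1 KO and 38.2 to 63.9 in double knock-out cells (log2 fold change 2.74, limma adjusted p = 0.0001). Col6a3, a chain of the microfibrillar type VI collagen, had 16.3, 16.6 and 16.4 in WT, 212, 224 and 77.0 in Sqstm1 KO and 49.7 to 55.9 in double knock-out cells (2.39, limma adjusted p = 0.00039). Col12a1, a fibril-associated collagen, had 35.4 to 38.1 in WT and 90.0 to 299 without p62 (1.88, limma adjusted p = 0.002). In all 3 the double knock-out mean was below that of Sqstm1 KO, a difference that was called for Col6a3 only.

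Dcn, the small proteoglycan decorin, went the other way between the backgrounds, with 0, 3.01 and 0.606 normalized counts in WT, 23.5 to 28.4 in Sqstm1 KO and 61.2 to 126 in double knock-out cells. Its log2 fold change was 4.74 (SE 0.42, limma adjusted p = 9.6e-06). Timp1, the inhibitor of metalloproteinases that stellate cells make in fibrosis, had 6.81, 8.29 and 6.67 in WT, 37.8, 23.5 and 55.3 in Sqstm1 KO, and 59.3, 32.0 and 38.2 in double knock-out cells. The p62-deficient groups overlapped each other and lay above WT, with a log2 fold change of 2.29 (limma adjusted p = 0.00075).

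**Figure D3:**
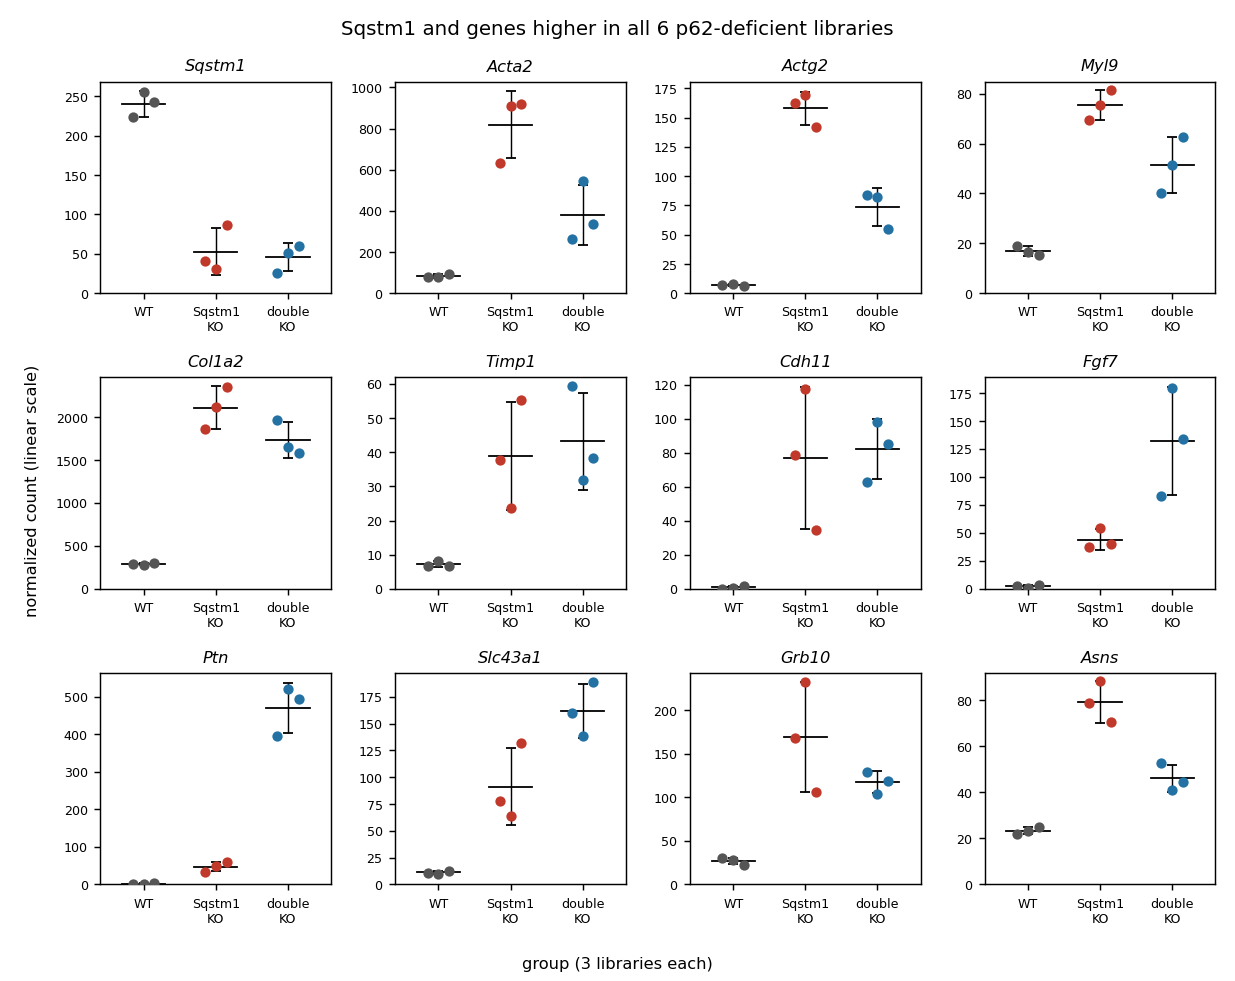
Normalized counts on a linear scale for Sqstm1 and 11 genes that rose, by group, with 1 point per library, the mean as a horizontal line and the SD as a bar. Sqstm1 is below WT in all 6 p62-deficient libraries, and the other 11 genes are above WT in all 6, Acta2 at 266 to 918 against 77.6 to 94.6.

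Enzymes that remodel matrix were called in both directions, with 6 of 28 tested members higher (Mmp14, Timp1, Adam12, Adamts2, Adamts9 and Ctsk), 3 lower, Mmp2 and Adamts5 among them (32.1% called), and a median of 0.15. Mmp2 was called lower from the Sqstm1 KO libraries alone and not from the double knock-out libraries alone (limma adjusted p = 0.815). With 1 group of 6 the Mmp2 call was lost (0.307). Adam12, a disintegrin and metalloproteinase of activated fibroblasts, rose from 1.36 to 6.78 normalized counts in WT to 9.76 to 48.0 (log2 fold change 2.36, limma adjusted p = 0.0046). Adamts5, an aggrecan-cleaving protease, had 266, 309 and 291 in WT, 165, 227 and 208 in Sqstm1 KO and 57.4, 62.8 and 57.3 in double knock-out cells. The 3 groups of Adamts5 values did not overlap, the pooled fall was 1.40 on the log2 scale (limma adjusted p = 0.00079), and the call was lost when the 6 libraries were 1 group (limma adjusted p = 0.131).

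A pair of secreted matrix genes fell in both backgrounds. Loxl4, a lysyl oxidase that cross-links collagen, had 76.3, 54.2 and 61.2 normalized counts in WT and 14.1 to 23.5 in the 6 p62-deficient libraries. Its log2 fold change was -1.68 (SE 0.27, limma adjusted p = 0.0018), with a difference between the backgrounds of 0.03 (interval from -0.64 to 0.69). Spon1, which encodes the matrix protein spondin 1, had 61.9 to 92.6 in WT, 29.2 to 52.1 in Sqstm1 KO and 13.7 to 20.4 in double knock-out cells (-1.59, limma adjusted p = 0.0029). The double knock-out values of Spon1 lay below those of Sqstm1 KO, with a difference of -1.05 (interval from -1.73 to -0.38) that was not called.

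Genes for secreted signals changed in both directions. Of 36 tested growth factors and receptors, 5 rose (Igfbp4, Igfbp7, Fgf7, Ptn and Gas6) and 4 fell (Igfbp6, Fgf10, Vegfd and Flt1), 25% in all, with a median of 0.06. Ptn, the heparin-binding growth factor pleiotrophin, had 0, 2.26 and 2.43 normalized counts in WT, 33.7, 49.5 and 59.7 in Sqstm1 KO, and 394, 521 and 494 in double knock-out cells. The 3 groups formed 3 separate levels. The log2 fold change of Ptn was 6.06 (SE 0.37, limma adjusted p = 5.4e-07), 5.43 after subtraction of the chromosome 6 median, and the double knock-out exceeded Sqstm1 KO by 3.30.

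Fgf7, the keratinocyte growth factor that mesenchymal cells send to epithelium, had 0.753 to 3.03 normalized counts in WT, 37.8, 54.4 and 40.1 in Sqstm1 KO and 83.2, 179 and 134 in double knock-out cells. All 6 libraries were far above WT, with a log2 fold change of 4.66 (SE 0.35, limma adjusted p = 1.8e-06). Cxcl5, a neutrophil-attracting chemokine, had 1.36, 1.51 and 0 in WT, 18.4, 30.0 and 52.1 in Sqstm1 KO and 166 to 199 in double knock-out cells. With so few WT reads its ratio of rates was 126, with an exact 95% interval from 42.8 to 612, which, like all such intervals here, covers counting error only. Igfbp4, a binding protein that restrains insulin-like growth factors, had 1.82 to 3.01 in WT, 6.49 to 15.2 in Sqstm1 KO and 42.2 to 54.8 in double knock-out cells (2.71, limma adjusted p = 0.00047). In these 4 genes the double knock-out was above Sqstm1 KO by a called difference.

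Among TGF-beta, BMP and activin genes, 3 of 36 tested members rose, Inhba and Tgfbi among them, 3 fell, Grem1 and Ltbp1 among them (16.7% called), and the median was 0.01. Inhba was called higher from the Sqstm1 KO libraries alone and not from the double knock-out libraries alone (limma adjusted p = 0.529). With 1 group of 6 its call was lost (0.216). Grem1, a secreted BMP antagonist, had 155 to 223 normalized counts in WT, 7.59 to 23.5 in Sqstm1 KO and 73.6, 175 and 84.1 in double knock-out cells (-2.19, limma adjusted p = 0.0019). The double knock-out values of Grem1 overlapped WT. Its call was lost when the 6 libraries were 1 group (limma adjusted p = 0.135). Tgfbi, a TGF-beta-induced matrix protein, had at most 1.51 in WT, 2.17 to 9.74 in Sqstm1 KO and 50.9 to 61.6 in double knock-out cells, a ratio of rates of 55.6 (interval from 15.2 to 463). The Tgfbi call was also lost with 1 group of 6 (limma adjusted p = 0.0691).

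Further genes of the largest rises encode proteins of the cell surface and of signalling. Cdh11, the cadherin of mesenchymal cells and myofibroblasts, had 0, 0.753 and 1.82 normalized counts in WT, 78.6, 118 and 34.7 in Sqstm1 KO, and 63.1, 98.2 and 85.3 in double knock-out cells. The double knock-out values lay within the Sqstm1 KO range. The log2 fold change was 5.47 (SE 0.41, limma adjusted p = 2.1e-06), and the p62-deficient groups differed by 0.23 (interval from -0.79 to 1.26). Slc43a1, a transporter of large neutral amino acids, had 9.79 to 12.7 in WT, 64.1 to 132 in Sqstm1 KO and 138 to 188 in double knock-out cells (3.30, limma adjusted p = 3.4e-06). The double knock-out values of Slc43a1 lay above those of Sqstm1 KO, by 0.88 (interval from 0.23 to 1.53), which was not called. Grb10, an imprinted adaptor that dampens insulin receptor signalling, had 22.4 to 30.0 in WT and 104 to 232 in the 6 libraries (2.32, limma adjusted p = 9.5e-05).

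Sema3c, a secreted semaphorin, had 12.1 to 15.2 normalized counts in WT, 31.6 to 58.4 in Sqstm1 KO and 128 to 150 in double knock-out cells (log2 fold change 2.38, limma adjusted p = 6.4e-05). Phldb2, a cortical protein that anchors microtubules near adhesions, had 65.4 to 77.0 in WT, 145 to 255 in Sqstm1 KO and 351 to 445 in double knock-out cells (2.0, limma adjusted p = 0.0001). Both genes were above WT in all 6 libraries and were higher in the double knock-out than in Sqstm1 KO. Pak3, a kinase downstream of Rac and Cdc42, fell from 112, 110 and 137 in WT to 24.9 to 57.1 (-1.57, limma adjusted p = 0.0019).

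Genes of the quiescent cell did not move one way. Of 16 tested members of the quiescence, retinoid and lipid droplet list, 3 rose, Hand2 and Fabp5 among them, and 2 fell (Nes and Plin2), 31.2% in all, with a median of 0.00, and 32 of its 48 members did not pass the filter. That pooled median stood for -0.65 in Sqstm1 KO and 0.26 in double knock-out cells. In the double knock-out 5 members were called higher than in Sqstm1 KO and 1 lower. The Fabp5 call was lost with 1 group of 6 (limma adjusted p = 0.16). Plin2, the coat protein of lipid droplets, had 77.6, 72.3 and 71.6 normalized counts in WT, 29.6, 32.5 and 36.9 in Sqstm1 KO, and 19.1, 32.0 and 15.3 in double knock-out cells. All 6 libraries were below WT, and the log2 fold change was -1.45 (SE 0.27, limma adjusted p = 0.0046).

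Vitamin D signalling restrains stellate activation, and Vdr did not pass the filter. Of 15 tested genes of its list, 0 rose, 2 fell (Cyp27b1 and Cd14), 13.3% in all, and the median was -0.18. At the unadjusted limma p below 0.05, 2 of the 15 were higher, and edgeR and DESeq2 each called 0 higher. Cyp27b1, the hydroxylase that makes the active hormone, had 70.8, 59.5 and 49.7 normalized counts in WT, 10.2, 9.74 and 30.4 in Sqstm1 KO, and 19.1, 11.4 and 19.1 in double knock-out cells. The 6 values lay below WT in both backgrounds, with a log2 fold change of -1.89 (SE 0.36, limma adjusted p = 0.0064) that was not called without WT replicate 1 (limma adjusted p = 0.0577).

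Other genes fell in all 6 libraries. Medag, an adipogenic gene of mesenteric and visceral fat, had 85.8, 92.7 and 108 normalized counts in WT, 12.3, 26.0 and 19.5 in Sqstm1 KO, and 13.4, 37.7 and 20.4 in double knock-out cells (log2 fold change -2.19, limma adjusted p = 0.0012). Il1rl1, the receptor for the alarmin IL-33, had 21.8, 18.8 and 19.4 in WT, and its only reads without p62 were in double knock-out replicate 3, at 2.55. The ratio of its rates was 0.0174, with an exact 95% interval from 0.00207 to 0.0652. For both genes the p62-deficient groups had no called difference, and no library overlapped WT.

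Parp6, a mono-ADP-ribosyltransferase, fell from 43.7 to 59.9 normalized counts in WT to 8.61 to 24.3 (log2 fold change -1.68, limma adjusted p = 0.0025). Nmt2, which attaches myristate to proteins, fell from 117 to 153 to 45.9 to 84.6 in Sqstm1 KO and 23.9 to 39.96 in double knock-out cells (-1.51, limma adjusted p = 0.0031). Perm1, a regulator of oxidative metabolism known in muscle, had 213 to 338 in WT, 46.6 to 74.5 in Sqstm1 KO and 99.3 to 178 in double knock-out cells (-1.54, limma adjusted p = 0.0025). Perm1 was the only one of the 3 whose double knock-out values lay above those of Sqstm1 KO, and its call was lost with 1 group of 6 (limma adjusted p = 0.0573).

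**Figure D4:**
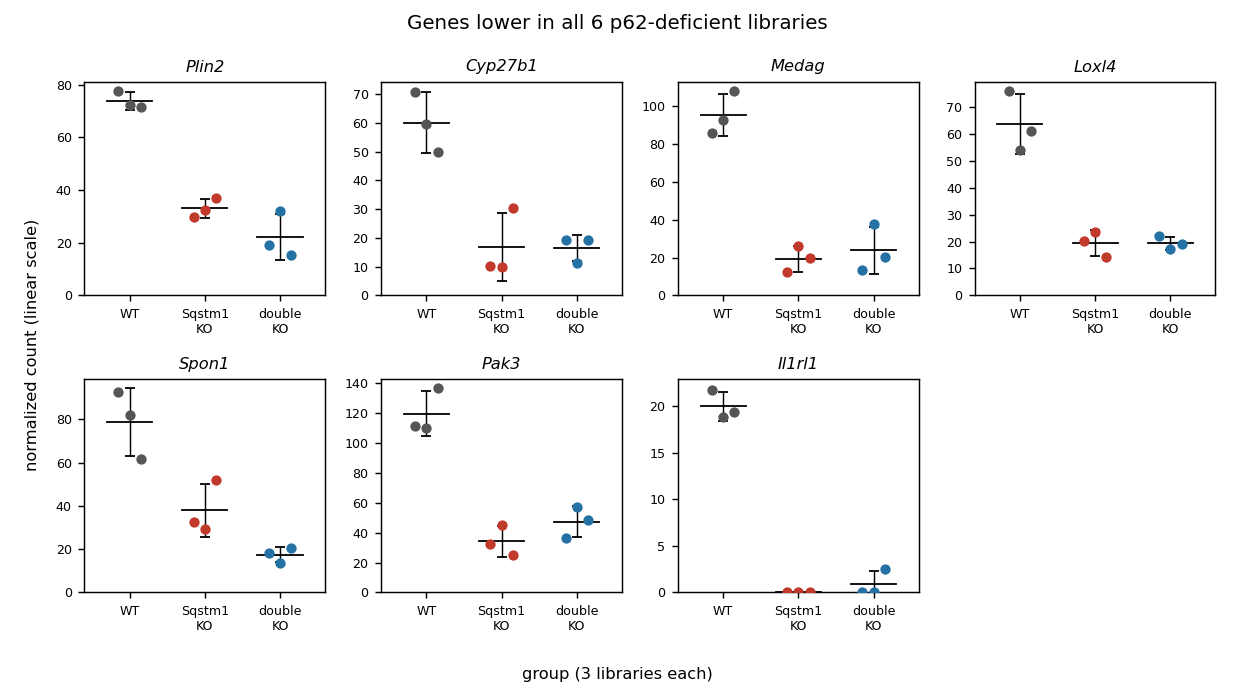
Normalized counts on a linear scale for 7 genes that fell, by group, with 1 point per library, the mean as a horizontal line and the SD as a bar. All 6 p62-deficient libraries are below WT in each panel, and Il1rl1 has reads in only 1 of the 6.

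The pathways in which p62 takes part were tested next. Among genes for proteins that bind p62, 0 of 24 tested rose and 1 fell (Rb1cc1), 4.17% in all, with a median of -0.30. At the unadjusted limma p below 0.05, 2 were higher and 5 lower, and edgeR and DESeq2 each called 0 higher and 2 lower. Rb1cc1, the FIP200 subunit of the kinase complex that starts autophagosomes and a direct partner of p62, had 68.1, 114 and 105 normalized counts in WT, 62.3 to 79.5 in Sqstm1 KO and 27.7 to 34.4 in double knock-out cells. Sqstm1 KO overlapped WT and the double knock-out did not. The pooled log2 fold change was -0.97 (limma adjusted p = 0.025). The call was lost without WT replicate 2 (limma adjusted p = 0.206), WT replicate 3 (0.145) or Sqstm1 KO replicate 1 (0.0518) and with 1 group of 6 (0.183), and Rb1cc1 overlaps the exon of 4732440D04Rik on the other strand.

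Selective autophagy receptors had 1 of 22 tested members higher (Stbd1) and Sqstm1 itself lower, and core autophagy machinery 1 of 30 higher (Vamp8) and 1 lower (Rb1cc1), with medians of -0.11 and -0.08. Stbd1, the receptor that carries glycogen to autophagosomes, had 9.53, 4.52 and 12.1 normalized counts in WT, 24.3 to 31.5 in Sqstm1 KO and 21.6 to 38.2 in double knock-out cells. All 6 libraries lay above WT, with a log2 fold change of 1.68 (SE 0.34, limma adjusted p = 0.0084) that was not called without WT replicate 2 (0.0786). The share of called genes in these lists, 9.09% and 6.67%, stood beside 6.29% over all tested genes.

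In the lysosome list 4 of 45 tested members rose (Ctsc, Ctsk, Scarb2 and Cln3) and 1 fell (Cd63), 11.1% in all, with a median of -0.09. Ctsc, the cathepsin that activates granule serine proteases, had 0 reads in all WT libraries, 8.17, 9.74 and 18.4 normalized counts in Sqstm1 KO and 12.4, 26.3 and 15.3 in double knock-out cells. Against a floor of 3 reads over the WT group it was at least 18.6-fold higher without p62 and did not overlap WT. Ctsk, the collagen-degrading cathepsin K, had 0, 0 and 1.21 in WT and 5.10 to 21.7 in the 6 libraries, a ratio of rates of 21 (interval from 5.58 to 177). Cd63, a tetraspanin of late endosomes and exosomes, fell from 294 to 356 to 155 to 196 (log2 fold change -0.86, limma adjusted p = 0.019). The Cd63 call was lost without WT replicate 1 (0.0529), 2 (0.117) or 3 (0.117) and after subtraction of the median of chromosome 10, where it lies (log2 fold change -0.54, adjusted p = 0.163).

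KEAP1 holds NRF2 for degradation, and p62 frees NRF2 by binding KEAP1. Of 32 tested genes of this pathway 1 rose (Slc7a11) and 0 fell (3.12% called), with a median of -0.05. At the unadjusted limma p below 0.05, 4 were lower, edgeR called 1 lower and DESeq2 0. Keap1 had 42.2 to 51.5 normalized counts in WT, 24.3 to 33.6 in Sqstm1 KO and 25.5 to 65.0 in double knock-out cells (log2 fold change -0.50, limma adjusted p = 0.35), and Nfe2l2, which encodes NRF2, had 43.7 to 55.2 and 28.7 to 64.0 (-0.20, limma adjusted p = 0.75). All 3 Sqstm1 KO values of Keap1 lay below WT and the double knock-out overlapped it, while for Nfe2l2 both p62-deficient groups overlapped WT. Keap1 overlaps Gm16754 on the other strand. Slc7a11, the cystine importer that feeds glutathione synthesis and is a target of both NRF2 and ATF4, had 2.72, 7.53 and 3.64 in WT, 29.6, 47.9 and 15.2 in Sqstm1 KO and 8.61, 13.7 and 21.6 in double knock-out cells. It rose by 1.97 (SE 0.44, limma adjusted p = 0.016), a call lost without WT replicate 1 (0.105), without WT replicate 3 (0.0872) or with 1 group of 6 (0.0563).

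In the ATF4, amino acid and unfolded protein response list 3 of 40 tested members rose (Asns, Mthfd2 and Pdia4) and 0 fell (7.5% called), with a median of 0.34. At the unadjusted limma p below 0.05, 10 were higher and 1 lower, and edgeR and DESeq2 each called 0 lower. Asns, asparagine synthetase, had 21.8, 23.4 and 24.9 normalized counts in WT, 78.6, 88.5 and 70.5 in Sqstm1 KO, and 52.6, 41.1 and 44.6 in double knock-out cells. The 3 groups did not overlap, and the log2 fold change was 1.33 (SE 0.22, limma adjusted p = 0.0026). Mthfd2, the mitochondrial folate enzyme, had 17.3 to 20.6 in WT, 55.1 to 68.2 in Sqstm1 KO and 21.99 to 39.96 in double knock-out cells (1.07, limma adjusted p = 0.029). Asns, Mthfd2 and Pdia4 all lie on chromosome 6, which holds 5 of the 40 tested members. After subtraction of its median their log2 fold changes were 0.70 (adjusted p = 0.127), 0.44 (adjusted p = 0.467) and 0.25 (adjusted p = 0.659), so 0 of the 3 calls of this list remained. The Mthfd2 call was also lost without Sqstm1 KO replicate 2 (limma adjusted p = 0.0508), without any 1 WT library (between 0.0987 and 0.167) and with 1 group of 6 (0.161).

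The 250 bases before the RefSeq starts of Asns and Slc7a11 are shown because each holds TGATGNAA, the letters of the CEBP-ATF response element, searched on both strands. The windows are chr6:7693210-7693459 and chr3:50443614-50443863 of GRCm38.p6, both on the - strand, and capitals mark the matches, 16 to 23 bases before the start in Asns and 40 to 47 and 59 to 66 bases before it in Slc7a11, on opposite strands.
Asns: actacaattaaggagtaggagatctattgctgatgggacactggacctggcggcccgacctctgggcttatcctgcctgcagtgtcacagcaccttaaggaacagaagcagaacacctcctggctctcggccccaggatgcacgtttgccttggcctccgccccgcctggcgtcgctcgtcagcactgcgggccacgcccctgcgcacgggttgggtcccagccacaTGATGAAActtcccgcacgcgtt
Slc7a11: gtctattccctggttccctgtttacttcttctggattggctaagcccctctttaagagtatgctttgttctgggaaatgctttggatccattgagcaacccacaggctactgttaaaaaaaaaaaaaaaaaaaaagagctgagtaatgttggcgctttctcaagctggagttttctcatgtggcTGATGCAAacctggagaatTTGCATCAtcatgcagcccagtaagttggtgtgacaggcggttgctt
These letters were in 1134 of 32851 windows (3.45%) and not in that of Mthfd2. The match is a description of the sequence, and binding was not measured.

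NF-kB subunits, regulators and targets had 2 of 19 tested members higher (Nfkbiz and Sod2) and 1 lower (Tnfaip2), 15.8% in all, with a median of 0.00. Tnfaip2 was called lower from the Sqstm1 KO libraries alone and not from the double knock-out libraries alone (limma adjusted p = 0.921). With 1 group of 6 the Tnfaip2 call was lost (0.346). Nfkbiz, an inducible nuclear cofactor of NF-kB, had 12.3, 12.1 and 14.6 normalized counts in WT, 24.5, 23.5 and 27.1 in Sqstm1 KO, and 90.8, 48.0 and 45.9 in double knock-out cells. All 6 libraries were above WT and the double knock-out was the highest group (log2 fold change 1.5, limma adjusted p = 0.0058, and 0.0655 with 1 group of 6). Of 30 tested mTORC1 genes none was called by limma, with 2 higher and 2 lower at its unadjusted p below 0.05, and edgeR and DESeq2 each called 0 higher and 1 lower. Of 37 proteasome subunits none was called by limma, with 2 higher and 4 lower at the unadjusted p, and edgeR and DESeq2 again each called 0 higher and 1 lower. Their medians were -0.19 and -0.11. Traf6 did not pass the filter.

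Chaperones had 1 of 48 tested members higher (Cryab) and 2 lower (Hspa4l and Hspb8), 6.25% in all, with a median of 0.01. Hspb8, the small heat shock protein that with BAG3 passes misfolded clients to p62, had 65.4, 84.4 and 84.3 normalized counts in WT, 21.4, 27.6 and 42.3 in Sqstm1 KO, and 25.8, 36.5 and 26.7 in double knock-out cells. It was below WT in all 6 libraries and alike in range in both backgrounds (log2 fold change -1.37, SE 0.27, limma adjusted p = 0.0071; difference 0.00, interval from -0.66 to 0.67). The call was lost without WT replicate 2 (0.0676) or 3 (0.0572). Among glycolysis and hypoxia genes, 3 of 28 tested rose (Hk2, Pfkp and Slc16a3) and 2 fell (Pgk1 and Car9), 17.9% in all. Slc16a3, the lactate exporter MCT4, had 3.77 to 8.17 in WT, 15.3 to 41.2 in Sqstm1 KO and 21.99 to 30.8 in double knock-out cells (1.86, limma adjusted p = 0.0076, and 0.0707 without WT replicate 2).

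The interferon-stimulated genes did not share a direction in the p62-deficient groups. Against WT, 8 of 40 tested members were called lower (Ifit2, Oasl2, Stat2, Trim25, Trim30a, Gbp9, Iigp1 and Sp100) and 0 higher (20% called), with a median of -0.85. The same pooled value stood for a median of -1.80 in Sqstm1 KO and 0.20 in double knock-out cells, and 28 of the 40 were called higher in the double knock-out than in Sqstm1 KO, against 4.42% of all tested genes. The count of 8 was 28 from the Sqstm1 KO libraries alone, 0 from the double knock-out libraries alone and 0 with the 6 libraries as 1 group. It was 5, 3 and 3 without WT replicate 1, 2 and 3, and 18 without Sqstm1 KO replicate 3. Of the higher direction, 0 members had a limma unadjusted p below 0.05, and edgeR and DESeq2 called 0. A fall of this list was thus measured in Sqstm1 KO cells and not in both backgrounds.

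Gbp9, an interferon-inducible GTPase, was one of 3 members with all 6 libraries below WT. It had 81.7, 78.3 and 105 normalized counts in WT, 1.02, 8.93 and 0 in Sqstm1 KO, and 50.7, 39.96 and 52.2 in double knock-out cells (log2 fold change -2.95, limma adjusted p = 0.0039). Oasl2, an antiviral member of the oligoadenylate synthetase family, had 52.0 to 68.1 in WT, 1.62 to 6.13 in Sqstm1 KO and 49.7 to 59.4 in double knock-out cells (-1.92, limma adjusted p = 0.0025). The double knock-out values of Oasl2 lay within the WT range or just under it. Trim30a, a ubiquitin ligase induced by interferon, had 51.2 to 58.8 in WT, 8.17 to 9.76 in Sqstm1 KO and 36.9 to 61.6 in double knock-out cells (-1.39, limma adjusted p = 0.0056). With the 6 as 1 group the limma adjusted p of Gbp9, Oasl2 and Trim30a was 0.194, 0.314 and 0.241.

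A promoter of Trim30a is shown because it holds the core of the interferon-stimulated response element, a pair of GAAA blocks with 2 bases between them, searched on both strands, within chr7:104465194-104465443 of GRCm38.p6 (- strand). The capitals mark the match, 27 to 36 bases before the start, on the strand opposite to transcription.
Trim30a: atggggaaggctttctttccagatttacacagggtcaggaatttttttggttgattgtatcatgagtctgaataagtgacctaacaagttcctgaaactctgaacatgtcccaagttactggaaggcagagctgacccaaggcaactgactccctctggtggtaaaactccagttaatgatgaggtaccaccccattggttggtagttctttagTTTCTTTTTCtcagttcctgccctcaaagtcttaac
The core was in 978 of 32851 windows (2.98%), in 1 of the 2 windows of Trim30a and not in that of Oasl2.

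The cGAS-STING list, the sensor pathway for DNA in the cytosol, had 2 of 16 tested members higher (Irf3 and Ifnar2) and 0 lower (12.5% called), with a median of 0.19, and 0 of the 2 calls remained after subtraction of chromosome medians. At the unadjusted limma p below 0.05, 3 were lower, and edgeR and DESeq2 each called 1 lower. Sting1, the adaptor, had 6.81 to 11.5 normalized counts in WT, 11.2 to 17.9 in Sqstm1 KO and 17.8 to 39.2 in double knock-out cells, with a log2 fold change of 0.88 that was not called (limma adjusted p = 0.17). Cgas, the sensor, had 11.3 to 19.1 in WT and 3.25 to 29.7 without p62 (-0.29, limma adjusted p = 0.76), and it overlaps Gm8093 on the other strand. Tbk1, the kinase that STING and p62 both engage, had 49.0, 70.8 and 63.1 in WT, 28.6, 42.2 and 37.96 in Sqstm1 KO, and 26.8, 35.4 and 29.3 in double knock-out cells. All 6 Tbk1 values lay below WT, and the log2 fold change of -0.85 (interval from -1.38 to -0.32) did not pass the threshold (limma adjusted p = 0.057). Tbk1 lies on chromosome 10, and after subtraction of that median the value was -0.53 (adjusted p = 0.266).

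**Figure D5:**
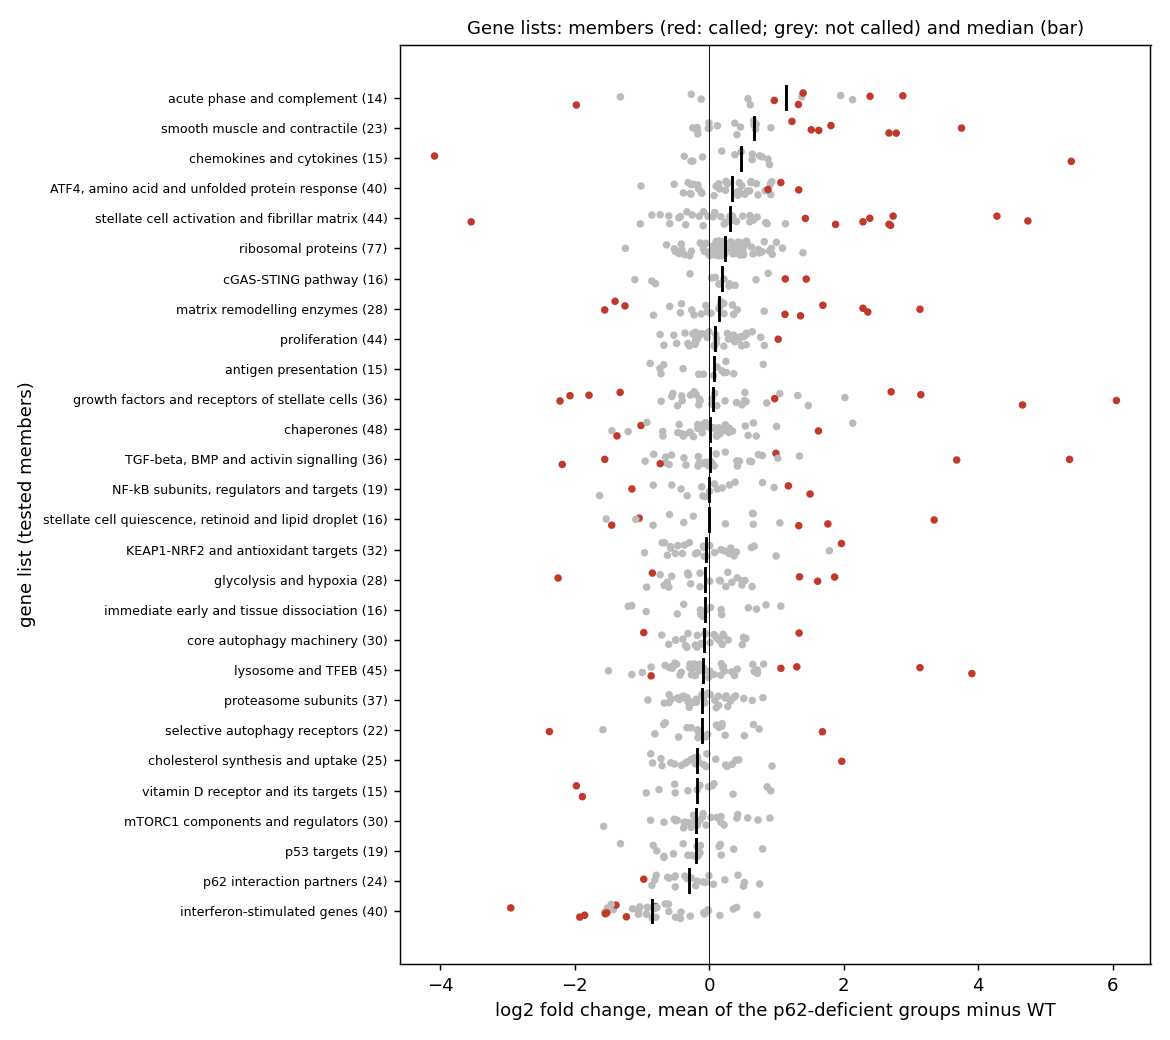
Each row is a gene list with its number of tested members, the x axis gives the log2 fold change of the p62-deficient groups against WT, red points are called genes, grey points are not, and black bars are list medians. The contractile list has a median of 0.66 and no called member below 0, the interferon list a median of -0.85, and most lists of p62 pathways have a median near 0. The acute phase and complement list has a median of 1.15 (0.19 in Sqstm1 KO and 2.37 in double knock-out cells). Of its 14 tested members 5 were called higher and 1 lower (42.9%).

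Some called genes owed the pooled value to 1 background. Thbs2, the matricellular thrombospondin 2, had 170, 188 and 226 normalized counts in WT, 0, 2.43 and 1.08 in Sqstm1 KO and 137, 188 and 115 in double knock-out cells. Ptprz1, a receptor phosphatase that binds pleiotrophin, had at most 1.36 in WT, 56.1 to 80.3 in Sqstm1 KO and 0.956 to 3.82 in double knock-out cells. Its log2 fold change was 3.11, and 2.48 after subtraction of the median of chromosome 6, where it lies. Thbs2 was thus low, and Ptprz1 high, in Sqstm1 KO alone. Cd24a, a glycosylated surface protein, was likewise 112 to 140 in Sqstm1 KO, against 12.1 to 30.0 in WT and 22.9 to 36.9 in double knock-out cells.

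Hmgcs1, the synthase that feeds the mevalonate pathway, had 42.9 to 65.4 normalized counts in WT, 43.4 to 77.9 in Sqstm1 KO and 750 to 790 in double knock-out cells, and it overlaps Gm48342 on the other strand. It was the only 1 of 25 tested cholesterol genes called. Saa3, an acute-phase apolipoprotein, had 0 to 3.03 in WT, 0 to 2.04 in Sqstm1 KO and 263, 166 and 171 in double knock-out cells. Slit3, a secreted guidance cue, had at most 0.753 in WT and 3.06 in Sqstm1 KO, and 53.7 to 66.0 in double knock-out cells. Calls of all 6 of these genes were lost when the 6 libraries were 1 group, with limma adjusted p of 0.254 for Thbs2, 0.175 for Ptprz1, 0.136 for Cd24a, 0.284 for Hmgcs1, 0.407 for Saa3 and 0.308 for Slit3.

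Of markers of other liver cells, few passed the filter. Of 18 hepatocyte markers 1 was tested and not called. Of 10 cholangiocyte markers 1 was tested and not called, with all 6 p62-deficient libraries above WT. Of 13 lymphocyte and 9 neutrophil markers 0 passed the filter, and of 18 macrophage markers 1 did. That was Cd14, the lipopolysaccharide co-receptor, with 14.6 to 21.8 normalized counts in WT, 0 to 3.06 in Sqstm1 KO and 6.85 to 17.8 in double knock-out cells (log2 fold change -1.98, limma adjusted p = 0.034). The Cd14 call was lost without any 1 WT library (adjusted p between 0.117 and 0.171), without double knock-out replicate 1 (0.0637) or 2 (0.0609), after subtraction of chromosome medians (0.0523) and with 1 group of 6 (0.242). Of 17 endothelial markers 4 were tested, 1 rose (Eng) and 1 fell (Flt1), 50% in all. An opposite-strand partner was present for 3 of the 4, among them Eng, which overlaps Fpgs, and not for Flt1. The endothelial list summed to 112 to 139 in WT, 99.0 to 357 in Sqstm1 KO and 193 to 278 in double knock-out cells. Of 19 portal fibroblast and mesothelial markers 5 were tested, 3 rose (Cd34, Slit2 and Slit3) and 1 fell (Igfbp6), 80% in all. With 1 group of 6 the calls of Cd34 (limma adjusted p = 0.144) and Slit3 (0.308) were lost. The portal fibroblast and mesothelial list summed to 222 to 269 in WT, 296 to 538 in Sqstm1 KO and 423 to 451 in double knock-out cells. Igfbp6, a binding protein with preference for IGF2, had 19.4 to 30.0 in WT, 0 to 4.87 in Sqstm1 KO and 7.99 to 15.3 in double knock-out cells (-2.22, limma adjusted p = 0.019, 0.0662 to 0.119 without 1 WT library, and 0.145 with 1 group of 6). The portal fibroblast and mesothelial sum lay above WT in all 6 libraries, as did the matrix genes that rose, and its part in those rises was not tested. The endothelial sum overlapped WT in Sqstm1 KO and lay above it in double knock-out cells. In bulk RNA, fewer cells of a type and less RNA per cell cannot be told apart.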

How the data were processed

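RNA was sequenced from 9 libraries of cultured hepatic stellate cells. The signal values in the deposited table are reads per gene after scaling of each library by a factor of its own, made by the authors; per the submitters' processing notes STAR, DESeq2 and the GRCm39 build were used, with versions, counter and annotation not given in the sources used here. In each library all values above 0 were whole multiples of its smallest value (100% of 121126 values, tolerance 0.01), so whole reads were recovered, totalling 819677 to 1467793 a library. All columns were used.

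Genes that reached 10 in at least 3 libraries were tested with limma 3.58.1 (R 4.3.3; trended variance) on log2(value + 1) in 3 groups, where a pseudocount of 1 understates changes of low genes. The pooled contrast and the difference between the p62-deficient groups came from this fit, adjusted by Benjamini-Hochberg, with calls below 0.05. Alternatives were other pseudocounts, filters and normalizations, 1 group of 6, array weights, single libraries left out, edgeR 4.0.16 and DESeq2 1.42.0 on recovered reads, and a replicate block. The fit was tested on simulated data in which both p62-deficient groups had the same changes, with no chromosome shift and no outlying library. Its behaviour with those features of the real data was not tested. The members and gene lists were chosen with earlier results of these data known. Named genes were Sqstm1, Nbr1, the 15 largest rises and 15 largest falls (called, all 6 beyond WT, a group mean of at least 50, no predicted or overlapping gene), up to 3 risen and 3 fallen genes per list by smallest p, 7 p62 partners and STING genes, the 8 largest differences each way between the p62-deficient groups among genes called in both comparisons, and Y-linked genes. Of these 100, 65 are printed with their values, picked after the values were seen in favour of calls that held without single libraries; Mrnip, Pcsk7 and Tagln lie outside the rule. Some genes are not reported here, and counts over lists include them. Ratios of rates have exact 95% intervals, and floors are 3 reads over a group. Overlaps were found in GENCODE M21 (GRCm38), matched by symbol for 12545 genes (89.5%), and promoters are RefSeq windows of GRCm38.p6.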

Additional observations from a re-analysis of the deposited data

Results flagged for a closer look

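The p62-deficient groups differed from each other in 33 of the printed genes by the limma test of the difference itself (double knock-out minus Sqstm1 KO, log2, Benjamini-Hochberg adjusted p below 0.05 over all tested genes), so for these the pooled fold change joins unequal effects. Among contractile and matrix genes the difference was -1.14 for Acta2, -1.11 for Actg2, -1.53 for Col6a3, -1.73 for Adamts5, 1.81 for Dcn and 6.23 for Thbs2. Among secreted signals and their receptors it was 3.30 for Ptn, -4.22 for Ptprz1, 1.51 for Fgf7, 2.16 for Igfbp4, 2.23 for Igfbp6, 2.65 for Grem1, 3.51 for Tgfbi, 2.51 for Cxcl5, 1.61 for Sema3c and 5.22 for Slit3. Among interferon, immune and acute-phase genes it was 4.15 for Gbp9, 3.66 for Oasl2, 2.18 for Trim30a, 2.53 for Cd14, 1.19 for Nfkbiz and 6.80 for Saa3. Among metabolic, autophagy and other genes it was 3.64 for Hmgcs1, -1.13 for Mthfd2, -1.12 for Rb1cc1, 0.95 for Phldb2, -2.00 for Cd24a, 1.24 for Perm1 and -1.11 for Nmt2. The Y-linked genes, with 0 reads in Sqstm1 KO, gave 5.64 for Ddx3y, 3.72 for Eif2s3y, 4.37 for Kdm5d and 3.60 for Uty, fitted values that depend on the pseudocount.

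On 3 chromosomes all Sqstm1 KO libraries lay on one side of the WT libraries and all double knock-out libraries on the other side. The median log2 difference of double knock-out minus Sqstm1 KO was 0.30 on chromosome 1, -0.19 on chromosome 4 and 0.41 on chromosome 14. These chromosome differences were not tested.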

How the results depend on the processing

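The pooled call count of 636 (352 higher, 284 lower) was 368 (208 and 160) at a filter of 50 in place of 10, 371 (186 and 185) for genes free of opposite-strand overlap, 267 (174 and 93) with the 6 libraries as 1 group and 3707 (1870 and 1837) with array weights; the first 2 settings test fewer genes, and for the others the cause was not tested. Leaving out single libraries gave 228 to 1044 calls (156 to 552 higher, 72 to 492 lower). Double knock-out against Sqstm1 KO, with 600 calls, gave 291, 371 and 1363 under the first, second and last of these settings and 333 to 777 without single libraries. Genes with all 6 libraries beyond WT numbered 540 and 674 under the first 2 settings and 1328 to 1910 without single libraries, where fewer libraries have to be separated. Count tests on recovered reads called 736 genes with edgeR and 864 with DESeq2. Of 8 interferon-stimulated genes called lower, 0 were with 1 group of 6, 27 with array weights, 13 with edgeR, 14 with DESeq2, 28 from Sqstm1 KO alone, 0 from the double knock-out alone, and 3 to 18 without single libraries; the 28 called higher in the double knock-out than in Sqstm1 KO were 12 at the filter of 50. Contractile genes called higher were 4 at the filter of 50 and 14 with array weights, and activation and matrix genes 19 with array weights. The sign of Saa3 reversed with Sqstm1 KO libraries only (-0.52), and that of Cgas with array weights (0.070) and with double knock-out libraries only (0.28). The chromosome 6 median was 0.55 with a pseudocount of 5, 0.70 at the filter of 50, 0.64 with quantile normalization, 0.60 without genes that overlap, and 0.61 to 0.64 without single libraries; that of chromosome 10 was -0.30, -0.27, -0.39 and -0.40 under the first 4. Of the 636 calls, 267 (42.0%) held with 1 group of 6, 455 (71.5%) after subtraction of chromosome medians, 614 with edgeR and 628 with DESeq2. The subtraction and the chromosome medians were chosen after seeing the data.

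With the replicate number as a block (replicate block), 739 genes were called, 400 of them higher, double knock-out against Sqstm1 KO gave 672, and 619 of the 636 calls held. Same-numbered libraries of different groups had deviations correlated at -0.12 to 0.18 across genes, against -0.26 to 0.26 for libraries with different numbers. Of the same-numbered pairs only WT replicate 3 with double knock-out replicate 3 lay below 0. Not every library correlated best with its own number. Whether same-numbered libraries shared a preparation or batch cannot be told from these values. Precision is limited by 3 libraries a group and by 819677 to 1467793 counted reads in each, at which a WT group without reads allows 0.808 normalized counts.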
